A study of Mus musculus with 6 samples.

Results

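Small nucleolar RNA (snoRNA) genes were followed in polysomal RNA of a clone of mouse T-ALL, an acute leukaemia of T-cell precursors, after exposure to 4EGI-1. The members were all gene symbols made of Snord or Snora and a number, each read by 1 probe set with that symbol alone. There were 51 such genes among 19937 measured, of which 31 were C/D box genes (Snord) and 20 were H/ACA box genes (Snora). For a symbol with several probe sets, 1 probe set was chosen by its mean log2 signal over the 6 arrays, the highest being used. Membership itself rests on the symbol, and the difference between treated and control arrays was not used to assign it. The family was, however, chosen with earlier results of these data known. All samples came from clone #483 of C57BL6 background. In 3 samples cells received 100 µM 4EGI-1, a compound known to keep eIF4E, which binds the mRNA cap, from joining the scaffold eIF4G, and 3 served as controls. The incubation lasted 2 h, polysome fractions of sucrose gradients were pooled, and each sample had 1 array. The controls are titled untreated while the protocol and the series title name DMSO, so their solvent exposure is not settled. One clone is a single leukaemia, and the labels do not state its driver. The design text speaks of biological replicates, without saying whether cultures were separate, and p-values measure the spread between these samples.

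snoRNAs are short RNAs that guide enzymes to ribosomal RNA in the nucleolus. C/D box snoRNAs bind fibrillarin, Nop56, Nop58 and Snu13 and direct ribose methylation, whereas H/ACA snoRNAs bind dyskerin, Nop10, Nhp2 and Gar1 and direct the conversion of uridine to pseudouridine; a few are needed to cut the ribosomal RNA precursor. Most mammalian snoRNAs are carved from introns of host genes, many of which encode ribosomal proteins, and others come from long non-coding host RNAs whose spliced exons encode no known protein. In RefSeq assembly GRCm38.p6, 50 of the 51 members lay inside another gene, with 40 different host genes in all, and Snord118 lay in none. That table gives no strand, so a host here is a gene that contains the snoRNA on either strand.

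The boxes that name the classes are shown by the snoRNA stretches that lie inside microRNA hairpins of the RefSeq table, the part of these RNAs for which sequence was used here. For Snord33, a C/D box member that fell, this is the first 28 of 82 bases (GRCm38.p6 chr7:45126918-45126945, minus strand, from the hairpin of Mir5121), with the C box letters UGAUGA in capitals.
Snord33: agcuugUGAUGAgacaucucccacucau
The motif began at base 7. Searched on the RNA strand alone, it occurred in the last 28 bases of 0.498% of 1005 hairpins. For the H/ACA class, Snora19 (chr19:60774330-60774385, minus strand, all 56 bases of its RefSeq entry) and the last 64 bases of Snora36b (chr1:185242975-185243038, plus strand) carry the ACA box in capitals, each with 3 bases after it. These are not members, because their probe sets list other genes too, and they are shown for the box.
Snora19: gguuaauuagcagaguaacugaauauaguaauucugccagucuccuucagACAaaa
Snora36b: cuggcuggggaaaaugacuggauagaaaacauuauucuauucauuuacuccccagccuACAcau
ACA at this distance from the end was found in 1.59% of the same hairpins.

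Polysomal signals of snoRNA genes were more often lower than higher after 4EGI-1. Of the 51 members, 15 fell, 1 rose and 35 did not pass (limma, adjusted p under 0.05 over all genes), and 11.5% of all genes fell and 11.5% rose. The share of members that fell was 29.4%. The median log2 difference (4EGI-1 minus control) was -0.20 over members and -0.03 over all genes, and 39 of 51 members had a difference below 0 (76.5%, against 56.3% of all genes). In 18 members (35.3%) every treated array lay below every control array, which held for 20.8% of all genes, and in 3 every treated array lay above, against 17% of all genes. These counts describe the family and were not tested as a set. Members were measured less tightly than genes in general, with a median SE of a difference of 0.11 against 0.08 over all genes.

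**Figure D1:**
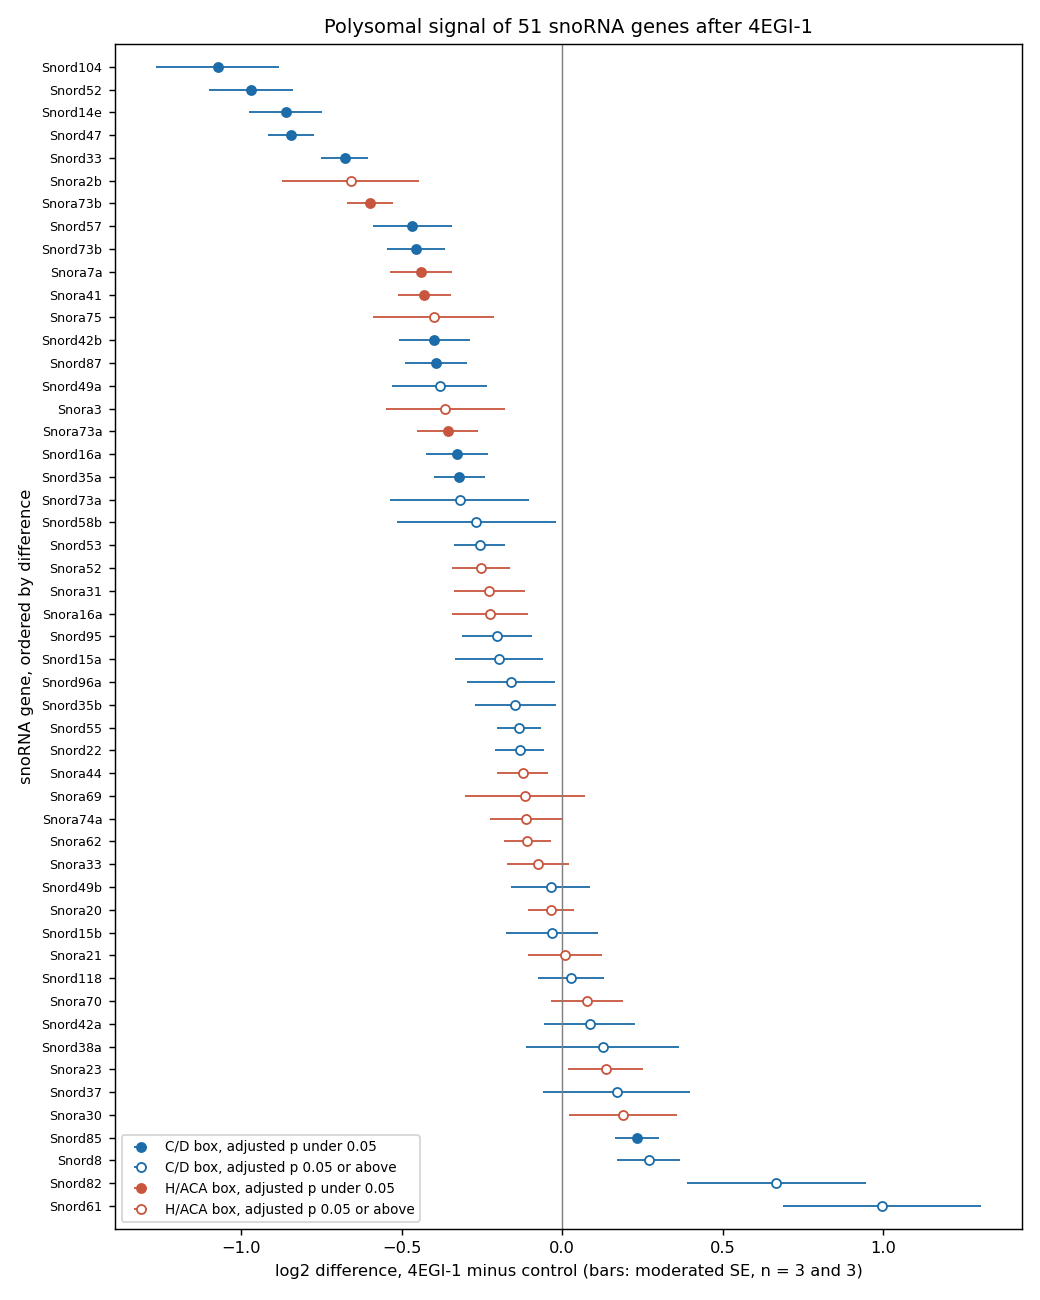
Log2 difference of each of the 51 snoRNA genes (x axis, 4EGI-1 minus control; bars are the moderated SE, n = 3 and 3), ordered by difference, with C/D box genes in blue, H/ACA box genes in red and filled points for adjusted p under 0.05. The 15 genes that fell are filled points left of 0, from -1.07 to -0.32, and Snord85 is the filled point to the right.

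Both classes had more genes that fell than rose. Of 31 C/D members 11 fell (35.5%), 1 rose and 19 did not pass, with a median log2 difference of -0.20. Of 20 H/ACA members 4 fell (20%), 0 rose and 16 did not pass, with a median of -0.17; 0 were higher at an unadjusted limma p under 0.05 either. The order of the class medians depended on a filter on signal: among genes at or above the table's median log2 signal it was -0.36 for H/ACA and -0.20 for C/D members. The difference between the classes was not tested. The mean log2 signal over C/D members was 6.28, 6.25 and 6.38 on the control arrays and 6.16, 6.10 and 6.04 on the treated arrays. Over H/ACA members it was 6.23, 6.30 and 6.29 on the control arrays and 6.07, 6.06 and 6.08 on the treated arrays. In both classes the groups did not overlap in this mean, whereas over all genes the means ran from 7.08 to 7.10 in controls and from 7.07 to 7.09 with 4EGI-1. The class medians overlapped between groups, at 6.12 to 6.28 in controls and 5.86 to 6.12 with 4EGI-1 for C/D members, and at 6.12 to 6.19 and 5.99 to 6.13 for H/ACA members. The lowest and highest C/D differences were -1.07 and 1.00 and the H/ACA differences spanned -0.66 to 0.19. The highest C/D value, that of Snord61, did not pass (limma, adjusted p = 0.0514). C/D members were also more numerous, with a median SE of 0.12 against 0.11 for H/ACA members, so the wider span is not shown to be a trait of the class.

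Among C/D guides, the largest decrease was that of Snord104, which lies in the long non-coding gene Gm36220. Its log2 signals were 5.83, 5.94 and 6.12 in controls and 5.13, 5.13 and 4.39 with 4EGI-1. All treated arrays were lower, and the third treated array lay well below the other 2. Snord104 was low in signal, with every treated value below 5.21, the 25th percentile of mean signal in the table. Its decrease, 1.07 ± 0.19 in log2 units (SE), left 0.475 times the control signal, with an adjusted p of 0.00457. Snord52, in the non-coding gene 1110038B12Rik, gave 6.37, 6.77 and 6.85 in controls and 5.61, 5.86 and 5.61 with 4EGI-1. It fell by 0.97 ± 0.13 (adjusted p = 0.00123), again with no overlap of the groups. Neither host was read by a probe set naming it alone.

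Snord47 is one of several C/D snoRNAs encoded in Gas5, a non-coding host RNA whose promoter start is shown with the hosts. Its signals were 9.56, 9.56 and 9.55 in controls and 8.83, 8.70 and 8.60 with 4EGI-1. The groups lay far apart relative to their spread, and the decrease was 0.84 ± 0.07 (SE; adjusted p = 0.00016). The probe sets of the host went in both directions. The one with the highest signal was at 12.19 ± 0.04 in controls and 12.44 ± 0.03 with 4EGI-1 (SD, n = 3), while the other 3 differed by -0.88 to -1.26, each past the test over all probe sets. The value of Snord47 lay close to those 3 and opposite to the first. No probe positions were used here, so which part of Gas5 each probe set reads was not analysed here.

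Snord14e belongs to the snoRNAs known as U14, which are needed to process the small-subunit ribosomal RNA, and it lies in Hspa8, the gene of the constitutive heat shock cognate chaperone. Its signals were 8.34, 8.29 and 7.95 in controls and 7.22, 7.33 and 7.45 with 4EGI-1, with no overlap. It fell by 0.86 ± 0.11 (SE; adjusted p = 0.00101). A further pair of probe sets that list Snord14c, Snord14d and Hspa8 together are not members, and their mean differences were -1.19 and -1.14. The first of these gave 8.33, 8.57 and 8.34 in controls and 6.84, 7.76 and 7.07 with 4EGI-1. The second gave 8.75, 8.89 and 8.71 in controls and 7.75, 7.59 and 7.60 with 4EGI-1. All of these snoRNA probe sets were lower on every treated array. The 3 probe sets of Hspa8 alone differed by -0.01, -0.01 and -0.08 and did not pass. Copies of a snoRNA can resemble each other, so the values of the Snord14 genes are not independent. Snord14a, in a probe set shared with Rps13, was at 5.51 in controls and 5.67 with 4EGI-1.

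**Figure D2:**
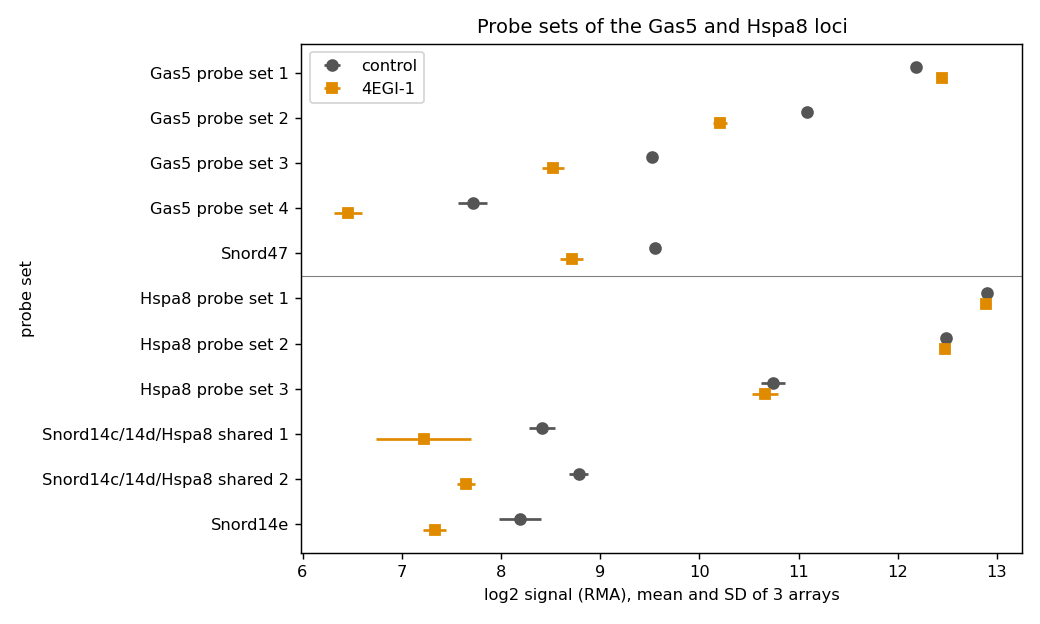
Mean log2 signal with SD over 3 arrays (x axis) for the probe sets of the Gas5 locus (upper part) and the Hspa8 locus (lower part), controls as grey circles and 4EGI-1 as orange squares. Snord47 and 3 of the 4 Gas5 probe sets are lower with 4EGI-1, and Snord14e and both shared Snord14 probe sets are lower while the 3 Hspa8 probe sets stay within 0.08 of their control means.

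Snord33 and Snord35a, methylation guides in the ribosomal protein gene Rpl13a that are also known from lipid stress responses, both fell. Snord33, whose C box is shown above, gave 5.64, 5.77 and 5.79 in controls and 5.15, 5.01 and 5.01 with 4EGI-1. Its decrease was 0.68 ± 0.07 (SE, adjusted p = 0.000422), with every treated value below 5.21, the 25th percentile of mean signal in the table. Snord35a fell by 0.32 ± 0.08 (adjusted p = 0.0219), which did not hold without control replicate 1 (adjusted p = 0.0677), control replicate 3 (0.0612), 4EGI-1 replicate 2 (0.0538) or 4EGI-1 replicate 3 (0.0724). Probe sets that list Rpl13a together with Snord34 or Snord32a differed by -0.48 and -0.25. Every snoRNA probe set of this host was thus lower in the mean. Rpl13a itself was not read separately.

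Snord57 lies in Nop56, which encodes one of the core proteins of the C/D particle itself. Its signals were 7.61, 7.89 and 7.66 in controls and 7.37, 6.99 and 7.40 with 4EGI-1. The decrease was 0.47 ± 0.12 (SE; adjusted p = 0.0268), and it missed the threshold without control replicate 2 (0.0894), control replicate 3 (0.0558) or 4EGI-1 replicate 2 (0.0509), and with the replicate block (0.0671). The mRNA of Nop56 went the other way, with 12.42, 12.34 and 12.44 in controls and 12.73, 12.68 and 12.71 with 4EGI-1. Nop56 rose by 0.30 ± 0.06 (adjusted p = 0.00805). Snord73b, in the ribosomal protein gene Rps3a1, gave 6.47, 6.33 and 6.48 in controls and 6.14, 5.85 and 5.91 with 4EGI-1, a decrease of 0.46 ± 0.09 (adjusted p = 0.00757). Rps3a1 differed by -0.12 ± 0.06 (adjusted p = 0.26).

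The remaining C/D genes that fell were Snord42b (-0.40), Snord87 (-0.39) and Snord16a (-0.33), with adjusted p-values of 0.0335, 0.0206 and 0.0415. Each of these calls was lost when some single arrays were left out, that of Snord16a also with the replicate block (0.0558) and that of Snord42b with quantile normalization (0.057). Without 1 array the adjusted p of Snord42b reached 0.118 (control replicate 1), that of Snord87 0.0764 (control replicate 1) and that of Snord16a 0.131 (control replicate 2). Snord85 was the member that rose. Its signals were 5.30, 5.42 and 5.32 in controls and 5.52, 5.66 and 5.56 with 4EGI-1, a difference of 0.23 ± 0.07 (SE; adjusted p = 0.0422). The groups did not overlap, but the call was lost without control replicate 1 (0.125), control replicate 3 (0.121) or any 4EGI-1 replicate (0.0552, 0.121 and 0.0834), and with a trended robust prior (0.0969).

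Some C/D genes did not pass, including Snord22 and Snord118, which are known for processing the ribosomal RNA precursor. Snord22, in the non-coding host Snhg1, had the highest mean signal of the members, with 9.35, 9.44 and 9.52 in controls and 9.41, 9.22 and 9.28 with 4EGI-1. The groups overlapped and the difference was -0.13 ± 0.08 (SE; adjusted p = 0.276). Snord118, the U8 snoRNA that is needed for the large-subunit ribosomal RNA and has its own promoter, was near the lower end of the signal at 4.00 ± 0.13 in controls and 4.02 ± 0.17 with 4EGI-1 (SD, n = 3). Its difference was 0.03 ± 0.10 (SE; adjusted p = 0.887). Snord53, in the ribosome assembly gene Wdr43, gave 8.62, 8.81 and 8.71 in controls and 8.45, 8.56 and 8.35 with 4EGI-1. Its groups did not overlap, but the difference of -0.26 ± 0.08 just missed the threshold (adjusted p = 0.0506), and it passed in 6 alternatives. Wdr43 gave 12.23, 12.20 and 12.17 in controls and 12.25, 12.26 and 12.24 with 4EGI-1 (0.05 ± 0.06, adjusted p = 0.607). Snord42a, the fifth highest in mean signal, gave 8.31, 7.94 and 8.45 in controls and 8.46, 8.12 and 8.38 with 4EGI-1, with overlap and a difference of 0.09 ± 0.14 (adjusted p = 0.735; -0.06 without control replicate 2). Its host Rpl23a, read by several probe sets, gave 12.72, 12.82 and 12.72 in controls and 12.57, 12.42 and 12.47 with 4EGI-1 and fell by 0.27 ± 0.07 (adjusted p = 0.022).

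The largest positive differences were uncertain. Snord61, in the splicing factor gene Rbmx, gave 3.01, 2.34 and 3.77 in controls and 4.00, 3.81 and 4.29 with 4EGI-1. The treated arrays lay above, but the controls spread widely at a low signal, and the difference of 1.00 ± 0.31 (SE) had an adjusted p of 0.0514. It was 0.65 (adjusted p = 0.099) without control replicate 2. It passed without control replicate 3 (1.36, adjusted p = 0.00455), with the replicate block (0.0118) and with a trended robust prior (0.0115). Snord82, in the nucleolin gene Ncl, gave 5.61, 5.36 and 6.43 in controls and 6.50, 6.83 and 6.08 with 4EGI-1, a difference of 0.67 ± 0.28 with overlapping groups (adjusted p = 0.135). Without control replicate 3 it was 0.98 (adjusted p = 0.0153), and without control replicate 2 it was 0.45 (adjusted p = 0.35).

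**Figure D3:**
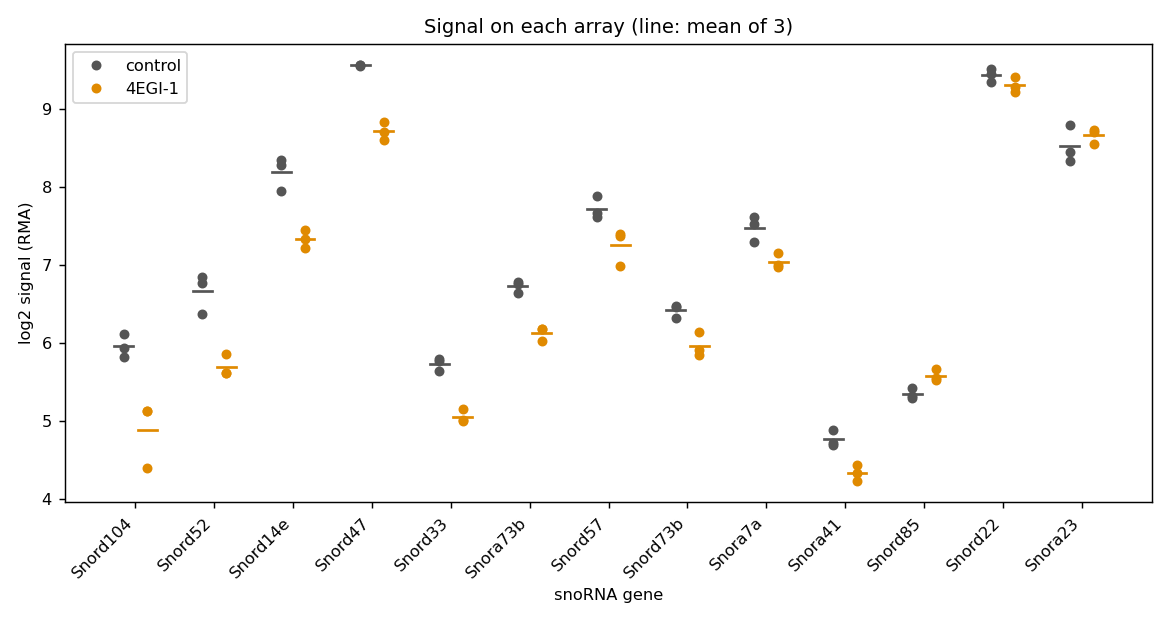
Log2 signal (y axis) of 13 snoRNA genes on each of the 3 control arrays (grey) and 3 arrays with 4EGI-1 (orange), with a line at each mean. In the 10 genes on the left the treated arrays lie below the controls, in Snord85 they lie above, and in Snord22 and Snora23 the groups overlap.

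Among H/ACA guides, Snora73b and Snora73a, copies of a snoRNA that acts in cutting the precursor of the small-subunit ribosomal RNA, both fell and share the non-coding host Snhg3. Snora73b gave 6.64, 6.78 and 6.76 in controls and 6.02, 6.18 and 6.18 with 4EGI-1. Its decrease was 0.60 ± 0.07 (SE; adjusted p = 0.000698), the smallest adjusted p of the class. Snora73a gave 6.43, 6.39 and 6.27 in controls and 5.96, 5.86 and 6.20 with 4EGI-1, with the third treated array close to the controls. It fell by 0.36 ± 0.10 (adjusted p = 0.0292), a call lost without control replicate 1 (0.102), control replicate 2 (0.086), 4EGI-1 replicate 1 (0.0833) or 4EGI-1 replicate 2 (0.0863), and with the replicate block (0.063). As copies the pair can share signal, and their host was not read separately.

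Snora7a, in the ribosomal protein gene Rpl32, which was not read separately, gave 7.29, 7.53 and 7.62 in controls and 6.97, 6.99 and 7.16 with 4EGI-1. It fell by 0.44 ± 0.10 (SE; adjusted p = 0.0124). Snora41, in the elongation factor gene Eef1b2, gave 4.88, 4.70 and 4.72 in controls and 4.23, 4.34 and 4.44 with 4EGI-1. It fell by 0.43 ± 0.08 (adjusted p = 0.00636), with no overlap though at a low signal. Its host differed by -0.20 ± 0.06 (adjusted p = 0.0537).

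Other H/ACA genes did not pass. Snora23, in the import receptor gene Ipo7, had the highest mean signal of the class, with 8.34, 8.79 and 8.45 in controls and 8.73, 8.55 and 8.71 with 4EGI-1; the groups overlapped (0.14 ± 0.12 SE, adjusted p = 0.487; 0.04 without control replicate 1). Ipo7 gave 11.30, 11.41 and 11.39 in controls and 11.69, 11.65 and 11.78 with 4EGI-1 and rose by 0.34 ± 0.07 (adjusted p = 0.00625). Snora2b, in the chromatin gene Kansl2, gave 5.55, 5.44 and 5.52 in controls and 4.92, 4.31 and 5.31 with 4EGI-1. Its difference of -0.66 ± 0.21 had an adjusted p of 0.0596, and it was -0.89 (0.0082) without 4EGI-1 replicate 3. Leaving out the second treated array instead gave -0.39 (0.0607). It passed with the replicate block (0.0406) and with a trended robust prior (0.0118). Kansl2 itself, with 10.27, 10.54 and 10.41 in controls and 9.78, 9.72 and 9.85 with 4EGI-1, fell by 0.62 ± 0.08 (SE; adjusted p = 0.00111), and the ratio of Snora2b to it changed by -0.04. Snora21 depended on the probe set. The kept probe set differed by 0.01 ± 0.12 (adjusted p = 0.971), whereas the other was at 6.34 ± 0.21 in controls and 5.57 ± 0.28 with 4EGI-1 (SD, n = 3). That other probe set differed by -0.77 ± 0.15 (SE) without overlap and passed in the limma fit of all probe sets (adjusted p = 0.00864). With the mean of both, Snora21 was at -0.38 (adjusted p = 0.0361). The probe sets of Snora3 differed by -0.36 and -0.35, and neither passed.

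A further H/ACA gene of the Kansl2 locus, Snora34, shares its probe set with Mir1291 and is not a member. RefSeq places the first 73 of its 118 bases inside the hairpin of that microRNA (GRCm38.p6 chr15:98519762-98519834, minus strand), so both names cover the same bases.
Snora34: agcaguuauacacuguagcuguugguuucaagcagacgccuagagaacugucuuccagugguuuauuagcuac
This probe set gave 6.67, 6.97 and 6.92 in controls and 6.44, 5.62 and 6.33 with 4EGI-1. All treated arrays were lower, the second by far the most, with a mean difference of -0.72. It was not in the test, which kept probe sets of 1 symbol.

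By the kept probe sets, host genes rose and fell in similar numbers, while their snoRNAs mostly fell where they passed. Of 40 hosts, 24 had a probe set of their own name. Of these 24, 5 rose (20.8%), 4 fell (16.7%) and 15 did not pass, with a median log2 difference of -0.02. All 24 had a mean signal at or above the table's median. In a separate fit of genes at that signal alone, 2339 of 11059 rose and 2804 fell. Counts of the hosts in that fit are not given here. Among the 28 members with a measured host, 7 fell, and over all genes 11.5% fell and 11.5% rose. Of these 7, 1 had a host that fell (Snord42b in Rpl23a), 2 had hosts that rose by the kept probe set (Snord47 in Gas5 and Snord57 in Nop56) and 4 had hosts that did not pass. The direction of Gas5 in this count rests on 1 of its 4 probe sets, since the other 3 fell. The host counts depend on the probe set elsewhere too. Tpt1, Rpl23 and Rpl27a did not pass, yet other probe sets of theirs fell in the limma fit of all probe sets. Examples are -0.44 (adjusted p = 0.00261), -0.20 (0.0436) and -0.22 (0.0387), in that order. In the other direction, a probe set of Rpl23a, which fell, was at 0.21 (0.0769). Across these 28 members, which share 24 hosts and the same 6 arrays, the differences of snoRNA and host gave a Pearson correlation of 0.326 and a Spearman correlation of 0.302. With the mean over all probe sets of a host in place of the kept one these were 0.518 and 0.436, a choice that changes Gas5 most. Which part of Gas5 its probe sets read was not analysed, so whether they share snoRNA signal with Snord47 was not tested. Processed copies of ribosomal protein genes can add to host probe sets, so host values of that kind are uncertain.

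The change of each snoRNA relative to its host was also taken within each array. This ratio was lower on every treated array than on every control array in 8 of 28 pairs, higher in 1 and overlapping in 19. Among single genes, 20.8% were lower and 17% higher without overlap. No such share was computed for ratios of other gene pairs. The ratio changed by -1.10 on the log2 scale for Snord47 over the kept Gas5 probe set, by -0.86 for Snord14e over Hspa8 and by -0.77 for Snord57 over Nop56. The Gas5 value turns with the probe set: the mean difference of all 4 was -0.72, close to the -0.84 of Snord47. The 1 pair in the other direction was Snord61 over Rbmx, at 0.82. Each of these had a two-sided exact permutation p of 0.1 (0.311 adjusted over the 28 pairs), the smallest that 3 against 3 arrays allow, so this test could not pass any pair and the ratios are a description. A probe set inside a host gene can bind the free snoRNA and unspliced host RNA alike, and the arrays do not separate them.

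**Figure D4:**
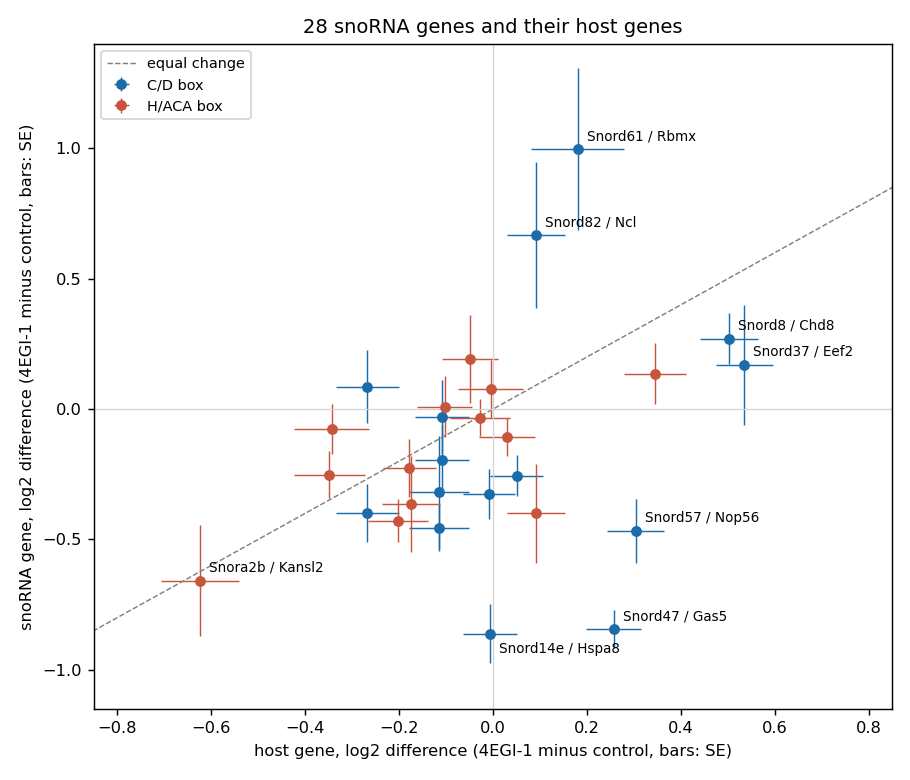
Log2 difference of 28 snoRNA genes (y axis) against that of their host genes (x axis), both 4EGI-1 minus control with moderated SE, C/D box in blue and H/ACA box in red; the dashed line marks equal change. Snord47, Snord14e and Snord57 lie far below the line, at hosts of 0.26, -0.01 and 0.30 (kept probe sets; with the mean of its 4 probe sets, -0.72, Gas5 would place Snord47 near the line), and Snord61 and Snord82 lie above it.

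There were 10 hosts with a pair of members, and differences within a pair were not tested. Both members fell in Rpl13a and Snhg3, 1 of the pair fell in Rpl23a and Rps3a1, and neither did in the other 6. In Rps3a1 the values lay close, with Snord73b at -0.46 and Snord73a at -0.32. The widest gap was in Ncl, where Snora75 was at -0.40 and Snord82 at 0.67, neither past the test. In Rpl23a, Snord42b fell by 0.40 while Snord42a was at 0.09. Of the 12 members in long non-coding hosts 6 fell and 0 rose, with a median log2 difference of -0.37. Of the 38 in protein-coding hosts 9 fell and 1 rose, with a median of -0.18. The 21 members in ribosomal protein genes included 6 that fell (median -0.20). Over all genes 11.5% fell, and the difference between host types was not tested.

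A further list held the 6 measured long non-coding RNAs named Snhg (snoRNA host gene) or Gas5, a group from which some, Gas5 among them, are known to be degraded when translated. Of these 4 rose, 0 fell and 2 did not pass (limma), and the median log2 difference was 0.42. For comparison, 11.5% of all genes rose and 11.5% fell. Gas5 is among the 4 by its kept probe set alone, and its other 3 fell. Snhg5 gave 10.20, 10.36 and 10.17 in controls and 11.45, 11.51 and 11.45 with 4EGI-1, a rise of 1.22 ± 0.07 (SE; adjusted p = 4.95e-05). Snhg16 rose by 2.11 ± 0.19 (adjusted p = 0.000174) and Snhg17 by 0.59 ± 0.12 (adjusted p = 0.00725). Besides Gas5, none of these genes hosts a member, so the RNAs of the Snhg hosts of members (Snhg1, Snhg3, Snhg4, Snhg6 and Snhg12) were not among them.

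Many snoRNA host genes are known to be transcribed from promoters whose start lies in a run of C and T, the mark of TOP mRNAs. The RefSeq promoter table (GRCm38.p6) held 31 of the 40 hosts. An unbroken run of at least 7 letters C or T, sought on the gene's strand from 10 bases before to 20 after the start, was present in 12 of these (38.7%), and in 20.5% of 27025 genes in the table. The following 60 bases, of which 40 lie before the start, are shown for hosts of Snord47, Snord52, Snord33 and Snord22, with the longest run near the start in capitals and, where a gene has several starts, the start with the longest run.
Gas5 (chr1:161035126-161035185, plus strand): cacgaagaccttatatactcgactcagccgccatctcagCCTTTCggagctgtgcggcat
1110038B12Rik (chr17:34952449-34952508, minus strand): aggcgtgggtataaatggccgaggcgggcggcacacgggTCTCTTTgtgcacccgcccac
Rpl13a (chr7:45128726-45128785, minus strand): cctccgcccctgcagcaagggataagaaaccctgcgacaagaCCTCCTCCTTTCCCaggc
Snhg1 (chr19:8723447-8723506, plus strand): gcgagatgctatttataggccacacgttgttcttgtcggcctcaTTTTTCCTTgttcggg
The run measured 6, 7, 14 and 9 letters in these hosts. Of 16 members whose host had a run of at least 7 letters, 3 fell (median log2 difference -0.18). Of 23 members whose host was in the table without one, 8 fell (median -0.26). The members that fell thus lay in hosts with and without such a run. The run did not have to hold the start itself, and in Rpl13a and Snhg1 it began after the start. Ribosomal protein genes such as Rps3 and Rps3a1, each with a longest run of 2, count as hosts without one. This split therefore does not divide TOP genes from other hosts.

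The mRNAs of the proteins that build snoRNA particles were taken from lists chosen for this family. The lists were not tested as sets, and 11.5% of all genes rose and 11.5% fell. In the H/ACA core, 2 of 4 fell, 0 rose and 2 did not pass; all 4 differences were below 0. Nop10 fell by 0.72 ± 0.06 (log2 units, SE, adjusted p = 0.000183) and Nhp2 by 0.57 ± 0.06 (0.000527), while Gar1 was at -0.21 ± 0.07 (0.0646) and the pseudouridine synthase gene Dkc1 at -0.07 ± 0.07 (0.525). In the C/D core, 1 of 4 rose, 1 fell and 2 did not pass. Besides Nop56, which rose, the box-binding protein gene Snu13 fell by 0.25 ± 0.07 (adjusted p = 0.025), Nop58 was at 0.10 ± 0.06 (0.338) and the methyltransferase gene Fbl at -0.09 ± 0.07 (0.441).

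Of 17 measured assembly and transport factors 2 rose, 4 fell and 11 did not pass, with a median log2 difference of -0.06. Znhit3, an assembly factor of the C/D particle, fell by 0.52 ± 0.07 (SE; adjusted p = 0.00121), and the cap-binding subunit gene Ncbp2 fell by 0.51 ± 0.07 (adjusted p = 0.00111). Of 11 measured genes for the release, trimming and surveillance of nuclear RNA 4 rose, 2 fell and 5 did not pass, with a median of 0.08. Mtrex, the helicase of the nuclear exosome, rose by 0.83 ± 0.07 (adjusted p = 0.000174). The exonuclease gene Xrn2 rose by 0.57 ± 0.06 (0.000406), and Exosc10, a catalytic subunit of the nuclear exosome, rose by 0.56 ± 0.06 (0.000544). Tgs1, which methylates the cap of some snoRNAs further, rose by 0.37 ± 0.06 (0.00285). Over all 36 measured factors 7 rose (19.4%) and 9 fell (25%), beside 11.5% each way over all genes. All 36 had a mean signal at or above the table's median. In a separate fit of genes at that signal alone, 2339 of 11059 rose and 2804 fell. Counts of the factors in that fit are not given here, so the factors are not shown to stand apart.

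The median log2 signal of the arrays was 6.38 to 6.43 over 34760 probe sets, and precision is limited by the small number of arrays. The mean of 7 measured T-cell markers was 11.20 to 11.26 in controls and 11.04 to 11.07 with 4EGI-1, without overlap; 3 fell, 1 rose and 3 did not pass, and their median log2 difference was -0.19, beside -0.20 over the snoRNA members. Myeloid markers (4 of 4 measured) averaged 5.92 to 5.98 in controls and 5.83 to 5.89 with 4EGI-1, and stromal or endothelial markers (4 of 4) 7.17 to 7.22 and 7.07 to 7.15, again lower without overlap. B-cell markers (3 of 4) averaged 5.41 to 5.49 and 5.27 to 5.46, and erythroid markers (2 of 3) 6.38 to 6.59 and 6.40 to 6.68, with overlap. The part of these shifts in the snoRNA values was not tested. Malat1, an abundant nuclear RNA, fell by 0.28 ± 0.07 in log2 units (SE), with an adjusted p of 0.0218. The mean over the 3 measured nuclear RNAs was 7.15 to 7.35 in controls and 7.05 to 7.17 with 4EGI-1, overlapping groups, and 1 of 3 fell. Whether carry-over of nuclear RNA has a part in the snoRNA values was not tested. snoRNA signal was in the lower range of the table, with 18 of 51 members at or above its median of 6.40. Of these 18, 6 fell, and of the 33 below, 9 fell and 1 rose. In bulk RNA, less of a snoRNA per cell and fewer cells with it cannot be told apart, nor can snoRNA on ribosomes and particles of the same density.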

How the data were processed

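Whole-transcript amplification gave biotin-labelled cDNA for hybridisation, per the labels' protocols. The deposited values are log2 signals, for which the submitters' processing notes name RMA; its version is not given in the sources used here. The method sets the arrays to a common distribution, so a value is relative to its array. Of 34760 probe sets, 21640 list 1 symbol, 1321 several and 11799 are not listed; 22 list a snoRNA with another gene. Symbols were updated by Entrez identifier (21553 matched, GRCm38.p6). RNA positions served to find hosts and sequences; the sequences are RefSeq's.

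Differences were fitted with lmFit and eBayes (limma 3.58.1, R 4.3.3) over 19937 genes, with Benjamini-Hochberg adjustment and two-sided tests at 0.05. The script was tested on simulated data. Members and lists were chosen with earlier results of these data known. Full values were given for the 10 largest decreases and the increase that passed, the 5 highest mean signals, the 3 smallest adjusted p-values of each class, the values or differences of their hosts where read separately, and Snord22, Snord118 and the copies of Snora73; the snoRNP core and up to 6 other factors were named. Other genes were chosen after their values were seen. Same-numbered replicates were compared for pairing. Alternatives were the replicate block, filters at the 25th percentile or median of the table, every probe set, averaging the probe sets of a gene, symbols as given, quantile normalization, a trended robust prior, array weights, a threshold of 0.01 and leaving out each array.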

Additional observations from a re-analysis of the deposited data

How the results depend on the processing

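The number of members that fell (15) was 8 among genes whose mean signal reached the table's median, where 18 members were tested and 2804 of 11059 genes fell, and 8 at an adjusted p under 0.01. It ran from 11 to 15 when 1 array was left out. The number that rose (1) was 0 at 0.01, 2 with the replicate block, 2 with a trended robust prior and 0 to 3 when 1 array was left out; at an unadjusted limma p under 0.05, 4 members were higher. The C/D median ran from -0.31 to -0.18 and the H/ACA median from -0.22 to -0.13 when 1 array was left out. The H/ACA median was -0.36 with that same filter. Snora21 turned from 0.01 to -0.38 with the mean of its probe sets. Of the 16 members called, 9 kept their call at 0.05 in every one of the 15 refits that tested them (Snord104, Snord52, Snord14e, Snord47, Snord33, Snora73b, Snord73b, Snora7a and Snora41), and 7 lost it in at least 1; a signal filter left some of the 9 out of a refit, and Snora7a (adjusted p = 0.0124) does not reach 0.01. Of the others, 13 passed in at least 1. Whether replicate numbers pair the arrays is not settled. Same-numbered deviations correlated weakly, at 0.061, 0.107 and -0.021. The same number was the best match for control replicates 1 and 2, whereas control replicate 3 correlated best with 4EGI-1 replicate 1 (0.055). With the replicate block, 13 of the 16 calls remained (Snord57, Snora73a and Snord16a were lost) and 3 were added. The causes of these changes were not tested beyond the smaller sets named.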

Other observations

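Other small RNA genes were measured on the same arrays. Of 300 microRNA genes, read by probe sets with 1 symbol, 13 rose, 16 fell and 271 did not pass, with a median log2 difference of -0.03 and 58.7% of differences below 0; over all genes 11.5% rose and 11.5% fell. Of 3 guide RNAs of Cajal bodies, which modify spliceosomal RNAs, 1 rose: Scarna8 rose by 0.36 ± 0.07 (SE; adjusted p = 0.00744), and Scarna17 and Scarna13 were at 0.10 and 0.02. Of 12 further small RNAs of known nuclear or cytoplasmic function, 0 rose and 0 fell (limma; 2 higher and 1 lower at an unadjusted p under 0.05). Among these were Rnu3a, a U3 snoRNA gene outside the symbol rule, at -0.37 ± 0.18 (adjusted p = 0.211), the RNase MRP RNA Rmrp at -0.05 ± 0.08 (0.741) and the transcription regulator Rn7sk at 0.17 ± 0.10 (0.318). The microRNA genes had a median signal of 5.00, below the table's 25th percentile of 5.21, and 68 of 300 were at or above its median. The 12 further small RNAs had a median of 5.67, and the snoRNA members 6.18. Few calls at low signal do not show that these RNAs stayed unchanged. Differences between these classes and the snoRNA genes were not tested.

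The 7 probe sets that list Snord116l1, Snord116l2 and Gm26504 together, copies from the imprinted Prader-Willi region, had mean differences from -0.67 to 0.02. The probe set with the lowest value had an SD of 0.94 in controls and 1.46 with 4EGI-1, larger than its difference. Among other shared probe sets, the one listing Snord7 and AI450353 was at 5.97 ± 0.11 in controls and 6.36 ± 0.11 with 4EGI-1 (SD, n = 3).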
